A study of Mus musculus with 2 samples.

Results

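A set of 8 genes of hepatic glucose output and of the insulin response was examined in liver cells by droplet-based single-cell RNA-seq: the gluconeogenic enzymes Pcx, Pck1, Fbp1 and G6pc, the secreted protein Igfbp1, the insulin receptor Insr, its adaptor Irs2 and the transcription factor Foxo1. The genes were chosen by name, and all rows that carry these names in the tables of hepatocyte clusters and of all cell clusters were taken. The hepatocyte table held rows for 7 of the 8 genes and the table of all cells for 5. Foxo1 was listed in neither table, and Fbp1 and Irs2 were listed in the hepatocyte table alone. Both tables together name 2783 genes.

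The liver cells came from wild type BALB/c mice that were injected intraperitoneally each day for 5 days with PBS or with recombinant IL-33 (rIL-33, 0.5 µg). The mice were male and fasted, and their livers were perfused with an enzyme mixture to free the cells. For hepatocyte isolation the methods give an age of 8 to 10 weeks, without naming these libraries. The number of mice behind each library is not given in the sources used here. Each condition gave 1 library and the tables pool both, so no value could be assigned to PBS or rIL-33, no replicate spread exists and no test was run. The measurement is the share of cells in which a gene had a value above 0, called detection here, inside a cluster and in the cells outside it. The shares are rounded to 0.1 percentage points, and the tables hold neither numbers of cells nor depth, so no counting error is given. Fewer cells that express a gene and less RNA per cell cannot be told apart from a share alone.

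The liver supplies the blood with glucose during fasting by breaking down glycogen and by gluconeogenesis, the synthesis of glucose from lactate, amino acids and glycerol. Pyruvate carboxylase (Pcx) and phosphoenolpyruvate carboxykinase (Pck1) start the route from pyruvate, fructose bisphosphatase (Fbp1) acts further along, and the catalytic subunit of glucose-6-phosphatase (G6pc) releases free glucose. Insulin binds its receptor (Insr), signals through adaptors such as Irs2 and keeps Foxo1 out of the nucleus. In the absence of insulin, Foxo1 raises the transcription of G6pc, Pck1, Igfbp1 and Irs2, so that these genes are commonly read as fasting or insulin response genes.

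Promoters are shown for G6pc, Igfbp1 and Irs2, because these were the members whose promoter held the core of the insulin response element. The RefSeq promoter table for GRCm38.p6, the assembly called mm10 in the study, gives 250 bases before and 50 bases after the start of a gene and matched 7 of the 8 members by symbol. Insr was not matched. In the sequences below, which read 5′ to 3′ along the gene, capitals mark matches to TGTTTTG (the element core, which reads CAAAACA on the opposite strand) or to TATAAA.
G6pc, chr11:101367466-101367765, plus strand: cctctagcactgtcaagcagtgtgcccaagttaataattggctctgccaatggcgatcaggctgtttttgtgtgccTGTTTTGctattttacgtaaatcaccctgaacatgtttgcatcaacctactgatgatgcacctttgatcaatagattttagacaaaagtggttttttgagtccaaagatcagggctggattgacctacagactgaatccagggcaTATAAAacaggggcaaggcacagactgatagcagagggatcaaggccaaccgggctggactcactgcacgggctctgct
Igfbp1, chr11:7197537-7197836, plus strand: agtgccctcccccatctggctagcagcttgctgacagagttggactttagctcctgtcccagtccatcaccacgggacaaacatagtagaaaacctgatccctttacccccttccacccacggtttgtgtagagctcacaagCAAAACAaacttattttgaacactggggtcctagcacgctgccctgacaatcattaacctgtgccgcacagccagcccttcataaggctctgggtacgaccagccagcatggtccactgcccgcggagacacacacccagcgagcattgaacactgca
Irs2, chr8:11008880-11009179, minus strand: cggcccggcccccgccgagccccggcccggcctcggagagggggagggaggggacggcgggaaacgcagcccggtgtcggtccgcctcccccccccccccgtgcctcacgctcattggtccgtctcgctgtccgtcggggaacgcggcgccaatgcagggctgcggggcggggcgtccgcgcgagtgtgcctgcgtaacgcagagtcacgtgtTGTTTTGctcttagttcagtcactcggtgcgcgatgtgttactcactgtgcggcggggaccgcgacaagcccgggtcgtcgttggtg
The core started 174 bases before the RefSeq start of G6pc on the plus strand, 108 bases before that of Igfbp1 on the opposite strand, and 37 bases before that of Irs2. These starts differ from those of the genes in GENCODE M21. The RefSeq start lay 471 bases upstream of the GENCODE start for Irs2, 155 bases downstream of it for G6pc and 5 bases downstream of it for Igfbp1. Counted from the GENCODE start of G6pc, the core began 19 bases before the gene and TATAAA 126 bases inside it. The core was present in 3 of the 7 matched members and in 6.28% of all 32851 promoters in the table. A TATAAA box lay 29 bases before the RefSeq start of G6pc and in none of the other matched members, against 13.6% of all promoters. TGTTTAC (forkhead), TGACGTC (cAMP response element), TTCNNNGAA (STAT) and CAAAGTCCA (HNF4), each searched on both strands, were found in 0 of the 7 members, and in 3.65%, 3.21%, 8.30% and 0.475% of all promoters. These are matches of letters within the window and do not show binding. Only the exact letters given were searched, so the absence of a match does not show that a promoter lacks the element. The Pck1 promoter holds a variant of the cAMP response letters that differs by a letter. The G6pc promoter holds such a variant of the forkhead letters. How many promoters hold such variants was not counted.

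Among the 5 hepatocyte clusters, Hepatocyte4 held most of the listings. Rows for Hepatocyte4 covered 6 of the 7 listed members (85.7%), where 54.7% of the 1604 genes of the table were listed. Hepatocyte5 listed 4 of the 7 (57.1%), close to its background of 54.3%. Hepatocyte3 listed Fbp1 alone, against 7.67% of all genes, and Hepatocyte1 and Hepatocyte2 listed 0 members, against 10.5% and 3.49%. Hepatocyte4 made up 18.1% of the hepatocytes and Hepatocyte5 1.47%, as relative sizes computed from the pairs of shares.

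A higher share in these clusters was not particular to the members. All 6 members listed for Hepatocyte4 and all 4 listed for Hepatocyte5 were detected in at least 10 percentage points more cells inside than outside, and so were 99.2% of the 877 genes listed for Hepatocyte4 and 99% of the 871 listed for Hepatocyte5. The median difference over these genes was 33.1 points for Hepatocyte4 and 42.9 points for Hepatocyte5. For Hepatocyte1, by contrast, the median difference over 169 genes was -22.8 points, and 159 of these genes were detected in fewer cells inside the cluster than outside. Depth in each cluster is unknown, and its part in the values below was not tested. Of 17 marker genes of other liver cell types, 0 had a row for any hepatocyte cluster, and Alb was detected in 100% of the cells inside and outside Hepatocyte4. Every row has a fold change above 0, so a marker spread evenly over the clusters would have no row. In the table of all cells, Ighm was detected in 61.6% of the cells outside the B cells, S100a8 in 46.9% outside the neutrophils and Cd3e in 3.2% outside the T cells. Alb was at 100% outside Hepatocyte4 there too, so it does not separate hepatocytes from other cells.

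G6pc showed the largest difference of the members. The gene lies on chromosome 11 of GRCm38 (101367561 to 101377903, plus strand, 5 exons in its longest transcript). G6pc was detected in 75.5% of Hepatocyte4 and in 13.6% of the remaining hepatocytes, a difference of 61.9 points that ranked 5 among 877 genes. In Hepatocyte5 detection reached 96.0%, compared with 23.7% outside, and the difference of 72.3 points ranked 29 among 871. Over Hepatocyte1, Hepatocyte2 and Hepatocyte3, G6pc was left in 12.1% of the cells. Of all hepatocytes with G6pc, 55.2% lay in Hepatocyte4 and 5.69% in Hepatocyte5, although these clusters together held 19.6% of the hepatocytes. Such parts were not computed for the other genes listed for Hepatocyte4, so none is shown to be particular to a member. The median shares of the genes listed for Hepatocyte4 were 42.9% inside and 8.7% outside. In the table of all cells, 38.9% of the cells with G6pc lay in Hepatocyte4, or at most 56.8% of the hepatocytes with G6pc, a limit reached if every cell of another type had the gene.

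Pcx, which makes oxaloacetate from pyruvate in mitochondria, followed the same order of clusters with a smaller contrast. The Pcx gene lies on chromosome 19 (4510472 to 4621752, plus strand, 21 exons in its longest transcript). Detection of Pcx was 63.2% in Hepatocyte4 and 20% outside (rank 205 of 877), and 88.1% in Hepatocyte5 and 26.9% outside (rank 158 of 871). The clusters without a listing had Pcx in 18.7% of their cells, and Hepatocyte4 and Hepatocyte5 together accounted for 45.9% of the hepatocytes with Pcx. They held 29.7% of the cells with Pcx in the table of all cells.

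Pck1 was widespread. Located on chromosome 2 (173153048 to 173159273, plus strand, 10 exons), it encodes the cytosolic enzyme that makes phosphoenolpyruvate from oxaloacetate. Pck1 was found in 99.2% of the Hepatocyte4 cells and in 82.5% of the remaining hepatocytes, and its difference of 16.7 points ranked 865 of 877. It was not listed for Hepatocyte5. Hepatocyte4 held 21.0% of the hepatocytes with Pck1, near its 18.1% of all hepatocytes.

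Fbp1 stood apart from the other enzymes. It lies on chromosome 13 (62864753 to 62888282, minus strand, 7 exons) and was listed for Hepatocyte3, where 52.3% of the cells had it, compared with 53.1% of the remaining hepatocytes. Its share was therefore 0.8 points lower inside the cluster that lists it. This held for 42 of the 123 genes listed for Hepatocyte3 (34.1%), and the median difference over these genes was 1 point. The detection of Fbp1 over all hepatocytes was 53.0%.

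**Figure D1:**
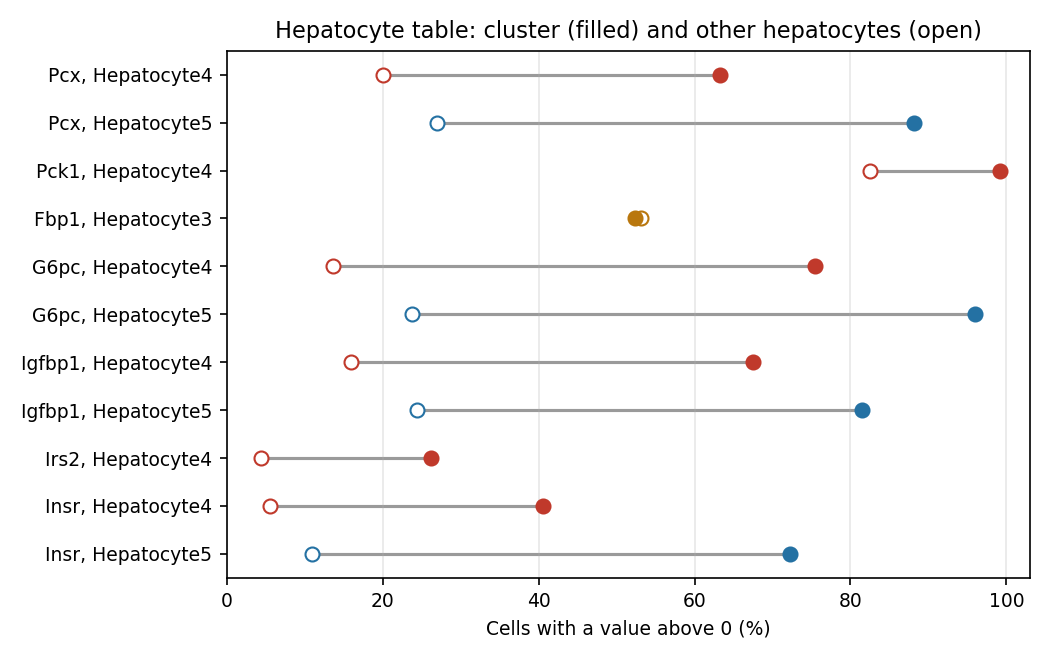
Detection of the 7 listed members in the hepatocyte table, as the percentage of cells with a value above 0 (horizontal axis), 1 line for each gene and cluster. Filled circles are the cells of the cluster (red Hepatocyte4, blue Hepatocyte5, orange Hepatocyte3), open circles the other hepatocytes, both libraries pooled, and the widest gap is that of G6pc in Hepatocyte5 (96.0% against 23.7%), whereas the circles of Fbp1 overlap.

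Igfbp1, a secreted binding protein for insulin-like growth factors that insulin represses, had its highest shares in the same clusters as G6pc. It lies on chromosome 11 (7197782 to 7202546, plus strand, 4 exons). Igfbp1 was detected in 67.5% of the Hepatocyte4 cells and 15.9% outside (difference 51.6 points, rank 65 of 877). The shares for Hepatocyte5 were 81.5% and 24.4% (difference 57.1 points, rank 214 of 871). In the 3 clusters without a listing Igfbp1 was left in 14.7% of the cells. Hepatocyte4 held 48.5% of the hepatocytes with Igfbp1, and 26.7% of the cells with Igfbp1 in the table of all cells (at most 33.7% of the hepatocytes).

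In the hepatocyte table Insr was detected in fewer cells than the enzymes, and most of these cells belonged to Hepatocyte4. In the table of all cells most cells with Insr lay outside Hepatocyte4. There Insr was detected in fewer cells than Pcx and Pck1 but in more than G6pc. Insr lies on chromosome 8 (3122061 to 3279617, minus strand, 21 exons in its longest transcript of 9355 nucleotides). Detection was 40.5% in Hepatocyte4 and 5.5% outside (rank 390 of 877), and 72.2% in Hepatocyte5 and 10.9% outside (rank 156 of 871). Hepatocyte1 to Hepatocyte3 had Insr in 4.25% of their cells. From these shares, Hepatocyte4 held 62.1% of the hepatocytes with Insr and Hepatocyte5 a further 8.98%. From the shares of the table of all cells, Insr was detected in 44.6% of all cells, G6pc in 31.8%, Pcx in 49.4% and Pck1 in 86.4%. Hepatocyte4 held 25.2% of the cells with Insr in that table, or at most 32.4% of the hepatocytes with Insr.

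Irs2 was the least detected of the listed members. Irs2 lies on chromosome 8 (10984681 to 11008458, minus strand, 2 exons). In Hepatocyte4 Irs2 was detected in 26.2% of the cells, just above the 25% that at least 1 of both shares reaches in every row of the tables, and in 4.4% of the other hepatocytes. The difference of 21.8 points ranked 799 of 877. Hepatocyte4 held 56.9% of the hepatocytes with Irs2. Irs2 was not listed for Hepatocyte5, and Foxo1 (chromosome 3, 52268336 to 52353221, plus strand) had no row. An absent row does not show absent expression, because a gene detected in under 25% of the cells both inside and outside a cluster is not listed. Pck1 (85.5% of all hepatocytes) and Fbp1 (53.0%) exceed that limit, yet have no row for Hepatocyte5. Every row also has a fold change above 0, so a gene without a higher value in a cluster has no row either.

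**Figure D2:**
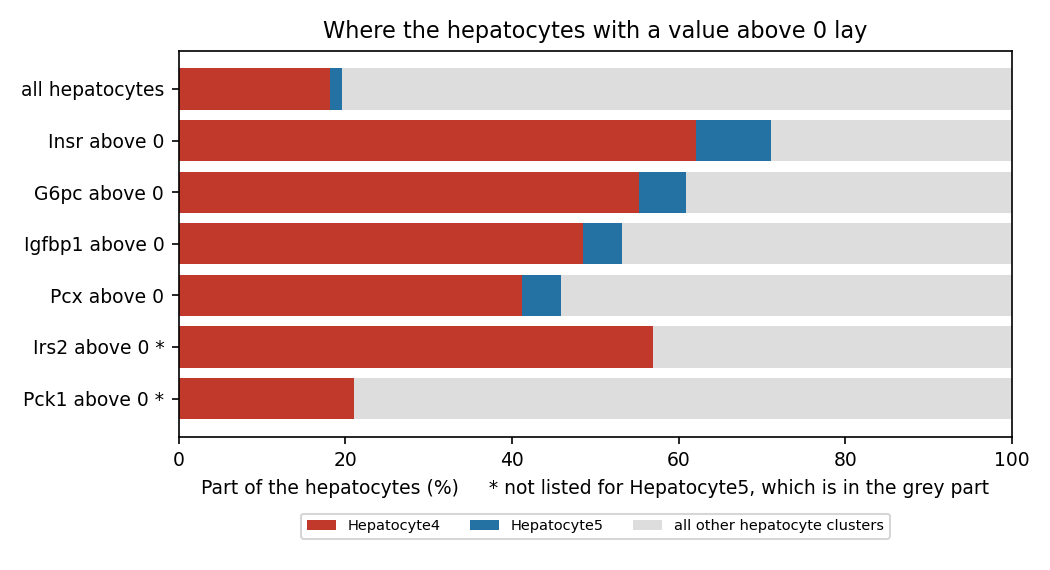
Where the hepatocytes with each gene lay, as a percentage of all hepatocytes (top bar) or of the hepatocytes with a value above 0 for the gene (other bars), computed from the shares and the relative cluster sizes. Red is Hepatocyte4, blue Hepatocyte5 and grey the other clusters, with Hepatocyte5 inside the grey part for Irs2 and Pck1. In the hepatocyte table Insr has the longest coloured bar (71.1%) and Pck1 the shortest (21.0%). Such parts were not computed for genes other than the members.

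In the table of all cells, both clusters held 28.0% of the cells with Insr and 42.9% of those with G6pc, so that G6pc came before Insr. The order of the members also depended on the scale, since a share near 100% can rise little further. If counts per cell were Poisson, the mean count implied by a share would be minus the natural log of 1 minus the share. On this scale Hepatocyte4 exceeded the other hepatocytes 9.62-fold for G6pc (9.57 to 9.67 from rounding of the shares alone) and 9.18-fold for Insr (9.08 to 9.28). The ratio was 6.75 for Irs2, 6.49 for Igfbp1, 4.48 for Pcx and 2.77 for Pck1 (2.73 to 2.81). In the hepatocyte table Insr thus moved from rank 390 by difference to rank 34 by ratio, and Irs2 from rank 799 to rank 271. G6pc fell from rank 5 to 27, Igfbp1 from 65 to 327 and Pcx from 205 to 751. Pck1 stayed near the end of the list at rank 861 of 877. Fbp1 remained below 1, with a ratio of 0.978 in Hepatocyte3. The high rank of Insr was lost in the table of all cells, where its ratio for Hepatocyte4 was 2.28 (rank 351 of 443). In that table the ratio was 5.34 for G6pc (rank 6), 3.10 for Pcx (rank 161), 2.80 for Igfbp1 (rank 238) and 2.64 for Pck1 (rank 273).

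For 4 members rows were present for both Hepatocyte4 and Hepatocyte5, and all 4 were detected in a larger share of Hepatocyte5. The difference was 31.7 points for Insr, 24.9 for Pcx, 20.5 for G6pc and 14.0 for Igfbp1. Nearly every gene listed for both clusters differed in this direction, 98.8% of 430, with a median of 21.9 points and an interquartile range of 15.0 to 29.4 points. Insr lay above this range (rank 70 of 430), Pcx (rank 172) and G6pc (rank 243) within it, and Igfbp1 below it (rank 340). As ratios of implied counts, Hepatocyte5 exceeded Hepatocyte4 2.47-fold for Insr, 2.29-fold for G6pc, 2.13-fold for Pcx and 1.5-fold for Igfbp1, beside a median of 2.16 over the 430 genes.

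**Figure D3:**
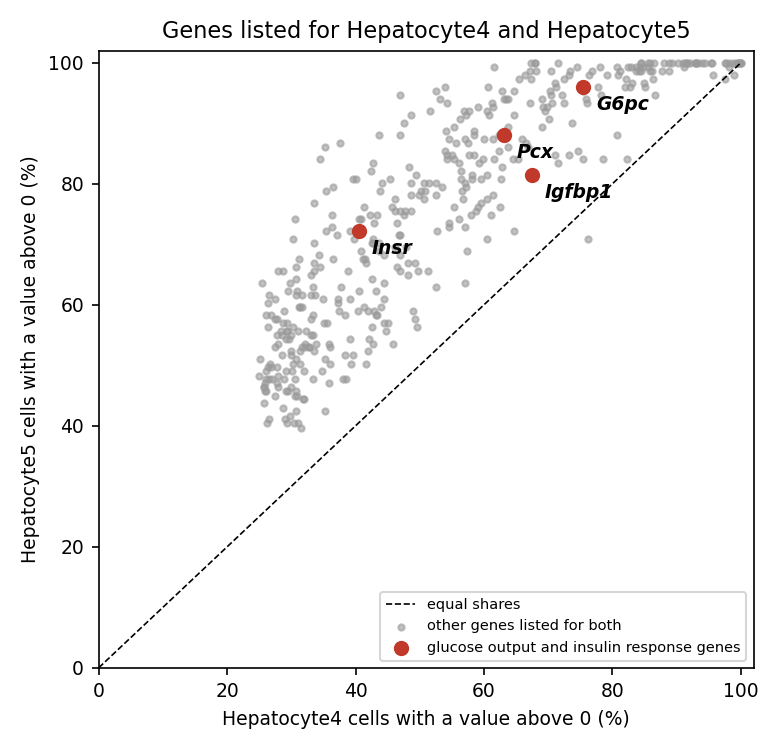
Percentage of cells with a value above 0 in Hepatocyte4 (horizontal axis) and Hepatocyte5 (vertical axis) for the 430 genes listed for both clusters, with 4 members in red, other genes in grey and equal shares as a dashed line. All 4 members lie above the line, as do 98.8% of the genes, and Igfbp1 lies closest to it of the 4.

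The genes with the most similar shares were sought among these 430 genes by the Euclidean distance over detection in Hepatocyte4, in Hepatocyte5 and in the other 3 clusters. G6pc was nearest to Man2a1 (72.4%, 97.4% and 13.8%), at a distance of 3.83 points, and then to Grn and Elovl2. Pcx was nearest to Tmem59 (distance 1.43), Igfbp1 to Paqr9 (5.11) and Insr to Magt1 (1.71), followed by Proz for Insr. The neighbours changed with the scale: on implied counts, 0 of the 3 nearest genes were shared for G6pc and 0 for Pcx, and 2 of 3 for both Igfbp1 and Insr. This likeness rests on 3 values for each gene.

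The table of all cells compares each cluster with all other cells. There Hepatocyte4 listed 5 of the 5 members present and Hepatocyte5 listed 4. Of all 1755 genes, 25.2% and 24.7% were listed for these clusters. The 1755 genes include those listed only for other cell types, so these percentages are too low as a background for hepatocyte genes. No member was listed for a cluster of another cell type. Detection inside the same cluster differed between the tables for 3 members. Insr was detected in 68.7% of Hepatocyte4 in this table and in 40.5% in the hepatocyte table, Pcx in 82.4% and 63.2%, and Igfbp1 in 78.1% and 67.5%. G6pc (75.6% and 75.5%) and Pck1 (99.2% in both) barely moved. Of 385 genes listed for Hepatocyte4 in both tables, 370 were higher in the table of all cells, with a median rise of 13.9 points.

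Outside the clusters the rise was steeper. Insr was detected in 39.9% of the cells outside Hepatocyte4 in the table of all cells, compared with 5.5% of the other hepatocytes. Cells that are not hepatocytes made up 12.0% of the cells outside Hepatocyte4. Had the hepatocytes kept their values and had all of these cells carried Insr, the share would have been 16.8% at most. The deposited share lay above such a limit in 6 of 9 rows, those of Insr, Pcx and Igfbp1, and below it in the 3 rows of G6pc and Pck1. Provided that the clusters hold the same cells in both tables, the hepatocytes therefore had other values for Insr, Pcx and Igfbp1 in the table of all cells than in the hepatocyte table. In the table of all cells, C1qa, a Kupffer cell gene, was also detected in 24.4% of the cells outside the Kupffer cell cluster. Other markers ranged outside a cluster that listed them from 0% for Trac (T cells) to 61.6% for Ighm (B cells), with S100a8 (neutrophils) at 46.9%. Alb was detected in 100% of the cells outside Hepatocyte4, which include the 12.0% that are not hepatocytes. Shares of the members themselves in cell types that should lack them were not listed. The part of free RNA in the values of the members was not tested.

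**Figure D4:**
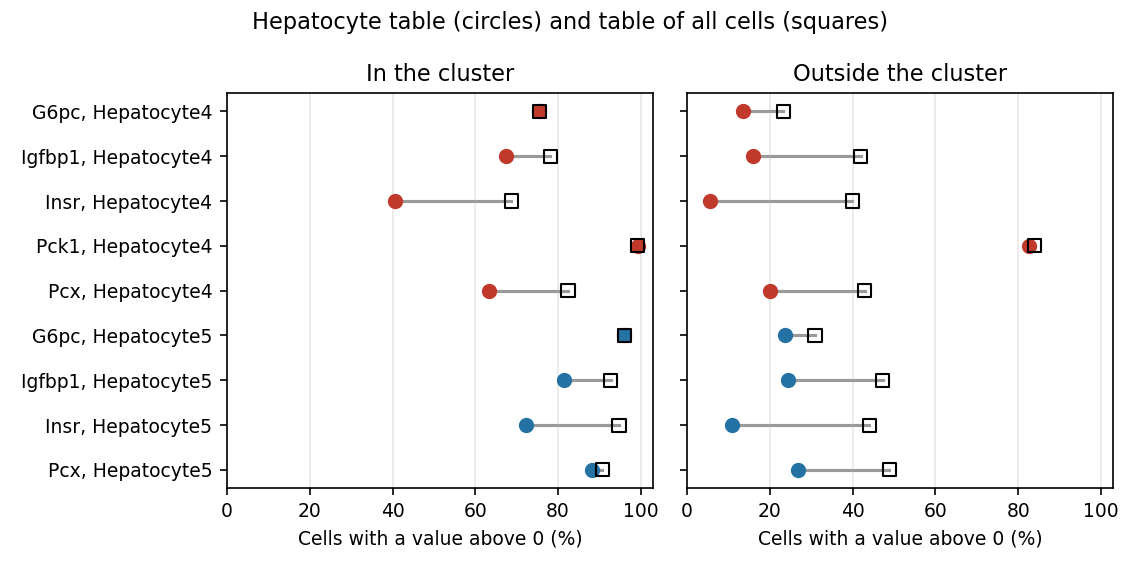
Percentage of cells with a value above 0 for 5 members in the hepatocyte table (circles, red Hepatocyte4 and blue Hepatocyte5) and in the table of all cells (open squares), inside the cluster (left) and outside it (right). Circles and squares coincide inside the cluster for G6pc and Pck1, and the longest line is that of Insr outside Hepatocyte4 (5.5% and 39.9%).

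Other genes of the same pathways were tallied from 9 lists, which hold 122 genes apart from the members. Of these, 41 were listed for a hepatocyte cluster: 32 of them for Hepatocyte4 (78.0%, where the background was 54.7%) and 15 for Hepatocyte5 (36.6%, where it was 54.3%). Hepatocyte2 and Hepatocyte3 listed 2 each and Hepatocyte1 listed 0. The median difference in detection over the 32 genes was 38 points, beside 33.1 points over all genes listed for Hepatocyte4. The table of all cells listed 20 of the 122 genes for a hepatocyte cluster, 15 of them for Hepatocyte4 (75%) and 8 for Hepatocyte5 (40%). The background over genes listed for a hepatocyte cluster was not counted there, so no excess can be read from these counts.

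In gluconeogenesis, 4 of 14 further genes were listed. Slc37a4, the transporter that carries glucose-6-phosphate to G6pc in the endoplasmic reticulum, was detected in 54.2% of Hepatocyte4 and 9.2% outside, and in 84.1% of Hepatocyte5 and 16.4% outside. Ldha, a lactate dehydrogenase subunit, was detected in 88.1% of Hepatocyte4 and 48.5% outside. Gapdh, which serves glycolysis as well, was not listed for these clusters. It was detected in 79.9% of Hepatocyte2 and 39.1% outside, and in 48.9% of Hepatocyte3 and 44.8% outside.

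Of 19 genes of glucose uptake, glycolysis and glycogen, 6 were listed for Hepatocyte4 and 2 for Hepatocyte5. The glucose transporter Slc2a2 was detected in 49.3% of Hepatocyte4 and 6.4% outside, and in 66.9% of Hepatocyte5 and 13.4% outside. The other 5 genes in Hepatocyte4 act in glycogen metabolism. These were Pgm1 (54.1% and 12.8%), Gbe1, Ppp1r3c, Ppp1r3b, a glycogen-targeting subunit of protein phosphatase 1 (46.2% and 7.4%), and Gys2, the liver glycogen synthase (34.5% and 5.9%). Gckr, the regulator of glucokinase, was listed for Hepatocyte5 alone (53.0% and 8.8%).

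Few components of hormone signalling reached the tables. In insulin signalling, 3 of 24 genes apart from the members were listed, among them Gsk3b, a kinase that restrains glycogen synthase (38.3% in Hepatocyte4 and 7.3% outside), and Trib1 in Hepatocyte5 (34.4% and 7.5%). In glucagon and cAMP signalling, 4 of 18 were listed. The glucagon receptor Gcgr was detected in 35% of Hepatocyte4 and 5.5% outside, and in 60.9% of Hepatocyte5 and 10.1% outside.

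Of 12 genes of the fasting and FOXO target list apart from the members, 6 were listed for Hepatocyte4 and 3 for Hepatocyte5. Cpt1a, which admits fatty acids to mitochondria, was detected in 69.8% of Hepatocyte4 and 15.6% outside, and Angptl4, an inhibitor of lipoprotein lipase, in 55.3% and 11.9%. Sds, an enzyme of serine breakdown, was listed for Hepatocyte2 (71.3% and 29.7%). In the table of all cells Sds was not listed for Hepatocyte2 but for Hepatocyte1, with a lower share inside than outside (57.0% and 61.3%). Of 8 genes of the glucocorticoid response, 6 were listed for Hepatocyte4 (3 in the table of all cells) and 0 for Hepatocyte5, led by the transcription factor Klf9 (72.4% and 20.8%) and Tsc22d3 (59.4% and 13.2%), followed by Tat, a tyrosine aminotransferase (97.3% and 62.5%).

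**Figure D5:**
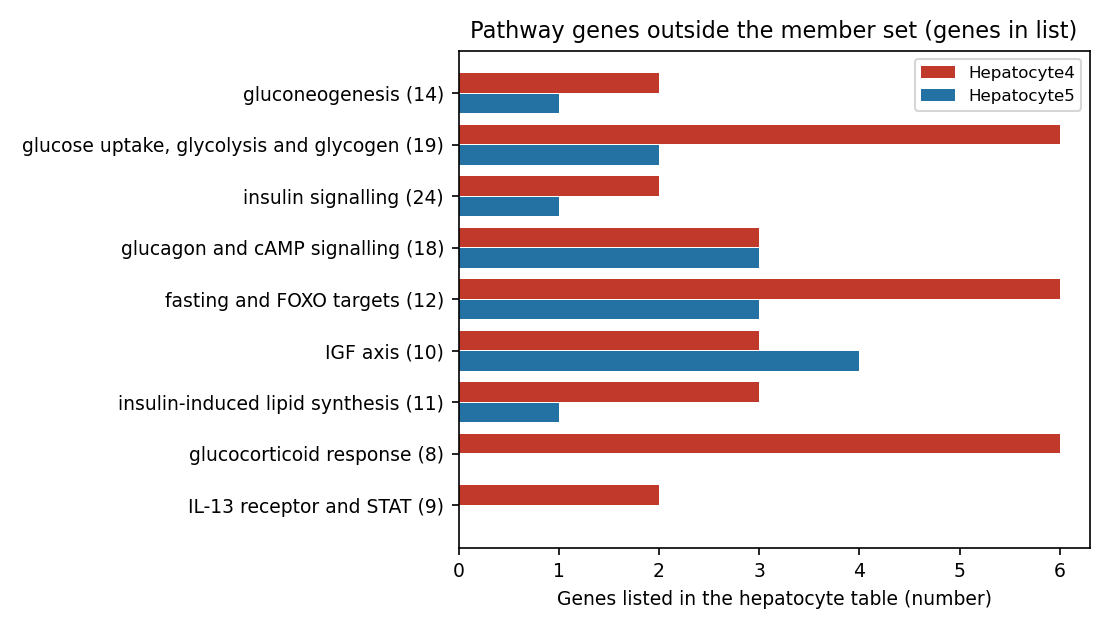
Number of genes listed for Hepatocyte4 (red) and Hepatocyte5 (blue) in the hepatocyte table, for each of 9 pathway lists without the members, with the number of genes in the list in parentheses. The red bar is longer for 7 lists, the bars are equal for glucagon and cAMP signalling, and the blue bar is longer for the IGF axis (3 and 4 genes), an order that turns in the table of all cells (1 and 0 genes).

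In the growth hormone and insulin-like growth factor (IGF) axis, 3 of 10 genes apart from Igfbp1 were listed for Hepatocyte4 and 4 for Hepatocyte5, whereas the table of all cells listed 1 and 0. Igf1 (82.3% and 41.4%) was listed for Hepatocyte4, Igfbp2 (89.4% and 40.1%) for Hepatocyte5, and Igfbp4 for both (92.9% and 52.3% for Hepatocyte4, 100% and 59.0% for Hepatocyte5). Of 11 genes of insulin-induced lipid synthesis, 3 were listed for Hepatocyte4, with Scd1, a fatty acid desaturase, at 54.6% and 12.3%. Of 9 genes of the IL-13 receptor and STAT list, Stat3 (46.2% and 9.3%) and Jak1 (28.6% and 6.0%) were listed, both for Hepatocyte4, and 0 of the 9 were listed for a hepatocyte cluster in the table of all cells.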

How the data were processed

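Liver cells of mice given PBS or rIL-33 were made into 2 libraries, 1 per condition, with a 3′ droplet kit that counts unique molecular identifiers. The authors aligned reads to mm10 with Cell Ranger, removed cells with over 3000 genes (taken as doublets), under 200 genes or over 50% mitochondrial genes, scaled each cell to 10000, took the natural log and listed cluster markers with Seurat, on both libraries pooled. No further step on doublets could be taken here without a cell matrix. The deposited values used here are the fraction of cells above 0 inside and outside each cluster, printed as percentages. The hepatocyte table holds 2103 rows, of which 7 have gene names stored as dates and were left out, and the table of all cells holds 3742. Both also hold the authors' own fold changes (above 0 in every row) and p-values, which were not used. Repeated genes carry a numeral in the row names of the table of all cells, so the gene column was read.

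Relative cluster sizes came from least squares on 486 genes listed for at least 2 hepatocyte clusters, whose share over all hepatocytes must be equal from each row, and summed to 100.2% (1115 genes for the table of all cells). The fit was checked on data with known sizes. Shares in unlisted clusters were solved from these sizes. For ranks on implied counts, shares of 0 or 100% were set to 0.05% and 99.95%. Named genes were the 8 members, up to 4 genes per list and cluster with the largest differences, and the 3 nearest genes. Some genes that this rule selects are not reported here. Gbe1 and Ppp1r3c were named outside this rule, after their values were seen. Members and lists were chosen with earlier results of these data known. Annotation was GENCODE M21. Alternatives were other size estimates, another scale, stricter rows and the table of all cells, which moved several values by over 1.5 times. Scripts ran in Python (3.11.15) with pandas (2.3.3) for the tables, NumPy (2.4.6) for the size estimates and SciPy (1.17.1) for the least absolute deviations.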

Additional observations from a re-analysis of the deposited data

How the results depend on the processing

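Other estimates of the cluster sizes moved the computed shares of the members by at most 0.0194 percentage points and the part lying in Hepatocyte4 by at most 0.0249 points; the latter comparison was added after seeing the data. On implied counts every difference of a member kept its direction, which was fixed in advance because the implied count rises with the share. With the table of all cells, all differences between a cluster and the outside cells kept their direction and were smaller. For Hepatocyte4 they were 52.4 points for G6pc, 15.3 for Pck1, 39.5 for Pcx, 36.2 for Igfbp1 and 28.8 for Insr, and for Hepatocyte5 they were 65.1, 41.9, 45.5 and 50.7 points for G6pc, Pcx, Igfbp1 and Insr. The difference between Hepatocyte5 and Hepatocyte4 was 8.3 points for Pcx and 26.0 for Insr in that table, and moved by under 1 point for G6pc and Igfbp1. The 1 member listed for Hepatocyte3 became 0 with rows of a higher share, with rows at least 10 points higher, and in the table of all cells. Shares of the table of all cells, an alternative also added after seeing the data, lowered the part of the cells with a gene that lay in Hepatocyte4 to 38.9% for G6pc, 27.3% for Pcx, 26.7% for Igfbp1, 25.2% for Insr and 18.7% for Pck1. In the same table the ratio of implied counts fell by over 1.5 times in 5 of 9 comparisons, to 5.34 for G6pc, 2.80 for Igfbp1 and 2.28 for Insr in Hepatocyte4, and to 3.55 for Pcx and 5.07 for Insr in Hepatocyte5. Of 45 counts of list genes per cluster, 10 changed by over 1.5 times in the table of all cells and 1 with rows at least 10 points higher. Members included, the table of all cells listed 3 genes of glucose uptake, glycolysis and glycogen, 1 of insulin signalling, 2 of the IGF axis, 1 of lipid synthesis, 3 of the glucocorticoid response and 0 of the IL-13 receptor and STAT list for Hepatocyte4. Unknown depth limits every share, and no spread between animals can be set beside any difference.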

Other observations

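Some genes of these pathways were listed for cells other than hepatocytes in the table of all cells. The genes named here were chosen after their values were seen. Pck2, the mitochondrial counterpart of Pck1, was listed for no hepatocyte cluster. It was detected in 73.7% of the cluster labelled HSC/fibroblast (hepatic stellate cells with fibroblasts) and in 2.1% of the cells outside it. In the red blood cell cluster its share was 32.5%, with 2.1% outside. The HSC/fibroblast cluster listed Dcn, a stellate and fibroblast marker (100% and 12.5%). It also listed the endothelial markers Stab2 (73.7% and 12.6%) and Pecam1 (73.7% and 5.6%), so the label does not settle which cells it holds. The HSC/fibroblast cluster made up 0.171% of all cells and the red blood cell cluster 0.708%, so that shares in them rest on few cells. Igf1r, the receptor for IGF-1, was detected in 89.5% of the HSC/fibroblast cluster and 2.3% outside, and in 46.8% of the neutrophils and 1.5% outside, and was listed for no hepatocyte cluster either. Txnip, a gene that glucose induces, was detected in 100% of the HSC/fibroblast cluster and 35.3% outside, and in 78.4% of the T cells and 34.9% outside. It was also listed, with smaller differences, for neutrophils, Kupffer cells, B cells and endothelial cells. Unlike Pck2 and Igf1r, Txnip had rows in the hepatocyte table, for Hepatocyte4 (31.0% and 5.9%) and Hepatocyte5 (40.4% and 10.0%).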
